A study of Mus musculus with 10 samples.

Results

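The mouse carbonic anhydrase genes were followed through RNA-seq libraries of 3 sorted epithelial populations. The 10 genes described are Car1, Car2, Car3, Car4, Car7, Car8, Car9, Car12, Car13 and Car14, found by symbol among the 43432 gene identifiers of the count tables. They are 10 of the 16 genes of the family in the GRCm38 annotation. The list was chosen by symbol with the group levels of these libraries already known, Car7 in intestinal tuft cells among them. Levels and differences of the 10 genes are therefore given as a description, with no p-value, and the calls below are not independent evidence. No threshold was applied in choosing them, and the other 6 family genes (Car5a, Car5b, Car6, Car10, Car11 and Car15) are reported beside them.

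Carbonic anhydrases are zinc enzymes that interconvert carbon dioxide and water with bicarbonate and a proton. Car1, Car2, Car3, Car7 and Car13 encode cytosolic enzymes. Car4 is held on the outer face of the plasma membrane by a lipid anchor, and Car9, Car12 and Car14 cross the membrane and carry the active site outside the cell. Car8 encodes a relative that has lost catalytic activity and binds the inositol trisphosphate receptor. In gut epithelium the enzymes supply protons and bicarbonate to exchangers that absorb salt and secrete alkali.

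All mice were naive 12-week males of strain C57BL6.Il25(Flare25/Flare25), homozygous for a fluorescent reporter of Il25, and each library came from 1 mouse. Tuft cells, the rare chemosensory cells that make this cytokine, were sorted as EPCAM+, CD45-, Flare25+ cells from small intestine (SI tuft, libraries 2 to 4, 35000 to 36000 cells) and from thymus (thymic tuft, libraries 1 to 4, 1350 to 1900 cells). EPCAM+, CD45-, Flare25- cells of the small intestine served as reference (SI epithelium, libraries 1 to 3, 52000 to 57000 cells). The reporter limits the tuft groups to cells in which the allele was on at sorting. Intestinal cells were released with EDTA and DTT, thymic cells with Liberase TM and DNase I on a Percoll gradient, so tissue and dissociation cannot be told apart. Mitochondrial genes took 21.0 ± 2.58% of counts in SI epithelium, 28.2 ± 4.86% in SI tuft cells and 5.22 ± 0.652% in thymic tuft libraries. With those counts removed, 4, 5 and 7 members were called in the 3 comparisons below, as with them.

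Libraries held 38659882 to 73574745 counts, and 3 counts corresponded to 0.0433 to 0.0816 counts-per-million (CPM). The tuft label was checked on Pou2f3, the tuft cell transcription factor, which was at 13.0 ± 1.94 CPM (SD, n = 3) in SI epithelium, 694 ± 104 (n = 3) in SI tuft and 491 ± 31.5 (n = 4) in thymic tuft libraries. Il25 itself was at 0.291 ± 0.158, 26.7 ± 2.67 and 20.5 ± 13.7 CPM. The 13 tuft markers summed to 224 to 428, 24972 to 34353 and 6016 to 7168 CPM. All 13 were called higher in both tuft groups than in SI epithelium. In thymic against SI tuft cells 11 were called lower and 0 higher. Myeloid and dendritic cell markers summed to means of 35.5 CPM in SI tuft and 261 in thymic libraries. Those of smooth muscle, fibroblasts and endothelium summed to 4.27 and 161. Of 8 tested each, 5 and 7 were called higher in the thymus, 1 and 0 lower. The summed level of 12 enterocyte markers was 18834 to 20513 CPM in SI epithelium, 36091 to 40861 in SI tuft and 234 to 464 in thymic tuft libraries. That of 7 goblet cell markers was 108531 to 118091, 2289 to 2834 and 1568 to 2711 CPM, so the reference held much goblet cell RNA. SI epithelium and thymic libraries also shared counts in pairs. SI epithelium libraries 1, 2 and 3 held about 0.569%, 0.581% and 0.583% of the counts of thymic libraries 3, 2 and 1. The reverse shares, of epithelial counts found in thymic libraries 3, 2 and 1, were about 0.918%, 0.959% and 0.860%. For Car4, Car7 and Car9 the part of such shared counts is given below, and the levels of other genes include them.

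The upstream sequences of 4 members are shown because Car7 marked both tuft groups, Car4 and Car9 were low together in the thymus, and Car12 was high there. RefSeq (GRCm38.p6) gave windows for 11 of the 16 genes, 15 in all, among them Car4, Car7, Car9, Car12 and Car14. Each line holds the 250 bases before the RefSeq start, 5′ to 3′ on the + strand. For Car7 and Car9 the GENCODE gene begins upstream of that start, at 104534689 and 43506966, so the last bases of both windows lie within the gene as GENCODE draws it, with the Car9 match and the nearer Car7 match in that stretch. Capitals mark the core of the hypoxia response element (ACGTG or GCGTG, either strand), the sequence that hypoxia-inducible factors bind. For Car7 the first of 3 starts is shown.
Car7 (chr8:104534450-104534699): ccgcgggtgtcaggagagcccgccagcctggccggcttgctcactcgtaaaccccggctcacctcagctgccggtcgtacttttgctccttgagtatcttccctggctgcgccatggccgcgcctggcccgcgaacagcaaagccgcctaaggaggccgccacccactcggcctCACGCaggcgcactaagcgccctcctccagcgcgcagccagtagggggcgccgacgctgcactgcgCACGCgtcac
Car9 (chr4:43506776-43507025): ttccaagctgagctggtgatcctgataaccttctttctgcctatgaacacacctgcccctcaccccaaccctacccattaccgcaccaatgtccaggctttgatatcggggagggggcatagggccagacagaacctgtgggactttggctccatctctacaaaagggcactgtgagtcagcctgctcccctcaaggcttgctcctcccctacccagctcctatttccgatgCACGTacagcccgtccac
Car4 (chr11:84957504-84957753): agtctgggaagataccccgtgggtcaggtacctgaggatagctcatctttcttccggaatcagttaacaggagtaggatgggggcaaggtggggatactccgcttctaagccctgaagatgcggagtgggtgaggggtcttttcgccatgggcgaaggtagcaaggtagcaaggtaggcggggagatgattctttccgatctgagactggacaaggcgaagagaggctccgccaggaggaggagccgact
Car12 (chr9:66713436-66713685): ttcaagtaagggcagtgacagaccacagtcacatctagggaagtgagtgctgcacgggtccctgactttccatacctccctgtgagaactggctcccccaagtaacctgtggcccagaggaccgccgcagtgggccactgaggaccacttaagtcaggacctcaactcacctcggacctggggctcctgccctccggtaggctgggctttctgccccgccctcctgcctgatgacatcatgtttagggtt

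The Car9 window held 1 match, beginning 18 bases before the start on the minus strand. The Car7 window held 2, beginning 76 and 10 bases before the start. The Car4 and Car12 windows held none. Over the family 8 of 15 windows held the core, as did 38.6% of all 32851 RefSeq windows of this length. The first 7 letters of the octamer bound by POU factors (ATGCAAA, either strand) were in 0 of the 15 family windows and in 4.12% of all windows. The TATA box letters TATAAA, either strand, were in 0 of 15 and in 12.4%. These are matches of letters in a short window and say nothing of whether a factor binds there or elsewhere.

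The family did not move in one direction between the populations. Differences were drawn from 1 edgeR quasi-likelihood fit over the 19281 genes that passed the filter on low counts. A gene was called at a Benjamini-Hochberg adjusted p below 0.05. All 10 members passed this filter. Car7 and Car2 were called higher in SI tuft than in SI epithelium and Car8 and Car12 lower, so 4 of 10 members were called, against 22.3% of all genes tested (10.9% higher, 11.4% lower). In thymic against SI tuft cells Car3, Car8 and Car12 were called higher and Car4 and Car9 lower. That is 5 of 10, where 51.6% of all genes were called (28.5% higher, 23.1% lower). In thymic tuft cells against SI epithelium Car2, Car3, Car7 and Car12 were called higher and Car4, Car9 and Car13 lower, which is 7 of 10 against 50.9% (28.6% higher, 22.3% lower). Median log2 differences of the members were -0.36, 0.81 and 1.23, and those of all genes tested were -0.10, 0.12 and 0.15. The 3 comparisons share libraries, so the differences of a gene are tied to each other. In bulk libraries fewer cells of a type and less RNA per cell cannot be told apart.

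**Figure D1:**
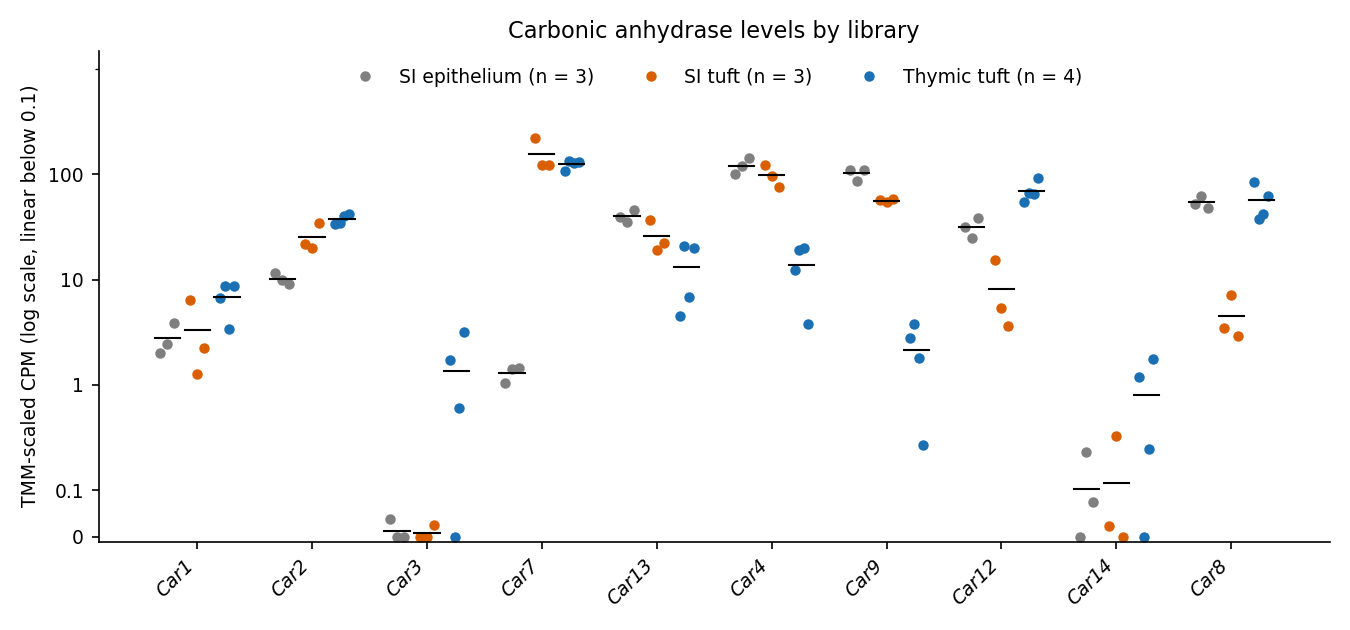
TMM-scaled CPM (log scale, linear below 0.1) of the 10 members in each library, with SI epithelium in grey, SI tuft in orange and thymic tuft in blue. Points are libraries and bars are group means. Car7 stands at 1.04 to 1.44 in SI epithelium and at 107 to 223 in the tuft libraries, while Car4 and Car9 are lowest in the thymus.

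Among the cytosolic enzymes Car7 (ENSMUSG00000031883, chromosome 8, 104534689 to 104550343, + strand), a highly active form best known from neurons, was far higher in both tuft groups than in SI epithelium. It was at 1.04, 1.42 and 1.44 CPM in SI epithelium, at 223, 123 and 124 CPM in SI tuft libraries 2, 3 and 4, and at 107, 134, 129 and 131 CPM in thymic tuft libraries 1 to 4. The tuft groups overlapped each other and neither overlapped SI epithelium. The log2 difference from SI epithelium was 6.91 (SE 0.31) in SI tuft cells and 6.59 (SE 0.30) in thymic tuft cells, and that between the tuft groups was -0.32 (SE 0.22). The epithelial level rested on 55, 67 and 95 counts, of which about 51, 41 and 38 match the share of the paired thymic library. With shared counts subtracted the log2 differences from SI epithelium were 8.25 and 8.02, so the size of the fold is not fixed by these data. The tuft markers of the epithelial libraries summed to 224 to 428 CPM, against 24972 to 34353 in SI tuft libraries.

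Car2 (ENSMUSG00000027562, chromosome 3, 14886273 to 14900770, + strand), the widespread fast enzyme of acid- and bicarbonate-secreting cells, was higher in both tuft groups than in SI epithelium. Its levels were 11.7, 9.87 and 9.11 CPM in SI epithelium, 21.8, 19.9 and 34.4 in SI tuft and 33.7, 34.5, 40.3 and 42.0 in thymic tuft libraries. The log2 differences from SI epithelium were 1.31 (SE 0.27) in SI tuft cells and 1.88 (SE 0.26) in thymic tuft cells, with no overlap. The tuft groups overlapped through SI tuft library 4, and their log2 difference was 0.57 (SE 0.25), not called. It was called in 7 of 20 alternative settings, among them DESeq2 size factors (0.81), upper quartile scaling (0.69) and the fit without SI tuft library 4 (0.84), so this call depends on the scaling, the filter and the libraries used.

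Car13 (ENSMUSG00000027555, chromosome 3, 14641727 to 14663002, + strand) ran the other way. It was at 39.1, 35.5 and 46.0 CPM in SI epithelium, 36.7, 19.3 and 22.4 in SI tuft and 4.53, 21.1, 6.88 and 20.1 in thymic tuft libraries. Thymic libraries 1 and 3 were low and libraries 2 and 4 reached the SI tuft range. Only the log2 difference between thymic tuft cells and SI epithelium, -1.61 (SE 0.48), was called, and without SI epithelium library 3 it was not called. The differences of SI tuft from SI epithelium (-0.62, SE 0.51) and of thymic from SI tuft cells (-0.99, SE 0.47) were not called, the latter becoming called without thymic library 2 (-1.30) or 4 (-1.26).

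Car1 (ENSMUSG00000027556, chromosome 3, 14766216 to 14808368, - strand), the abundant red cell and colon form, stayed low everywhere. It was at 1.99, 2.44 and 3.91 CPM in SI epithelium, 6.46, 1.28 and 2.24 in SI tuft and 6.76, 8.73, 3.43 and 8.77 in thymic tuft libraries. The groups overlapped in each comparison and no difference was called. Without SI tuft library 2 the difference of thymic from SI tuft cells, 1.06 (SE 0.63), became 1.96 and was called, and with the DESeq2 test that of thymic tuft cells from SI epithelium, 1.32 (SE 0.64), became 1.56 and was called. Red blood cell markers summed to 2.60 to 15.6 CPM over the 10 libraries.

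Car3 (ENSMUSG00000027559, chromosome 3, 14863512 to 14872523, + strand), a form of low activity that is abundant in muscle and fat, was found in the thymus only in some libraries. The gene had counts of 2, 0 and 0 in SI epithelium, 0, 0 and 1 in SI tuft and 104, 0, 42 and 167 in thymic tuft libraries 1 to 4. Thymic library 2 lay with the intestinal libraries, so the groups overlapped although both thymic comparisons were called. The call against SI tuft cells was lost without SI tuft library 2 or 3, and that against SI epithelium without SI epithelium library 2 or 3, that is in 2 of 16 alternative settings each. Of 10 skeletal muscle markers tested, 9 were called higher and 1 lower in thymic than in SI tuft cells. The 12 markers of this list summed to 194 to 294 CPM in thymic libraries and to 47.9 to 108 CPM in the intestinal ones, with 0 to 2 of 12 markers at 0 in the former and 3 to 9 in the latter. Thymic library 2, with no Car3 count, was at 289.9 CPM of these muscle markers. Of 5 adipocyte markers tested, 3 were called higher and 2 lower in thymic than in SI tuft cells. Fabp4 and Lpl, of fat cells, were at means of 74.9 and 44.6 CPM in thymic, 0 and 0.300 in SI tuft and 0.426 and 0.416 in SI epithelium libraries. Pparg and Cidec were at 5.95 and 4.08 CPM in thymic, 61.3 and 51.9 in SI tuft and 14.8 and 30.1 in SI epithelium libraries. The adipocyte sums were 107 to 151, 108 to 118 and 40.9 to 53.8 CPM, and the part of these cells in the Car3 level was not tested.

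Of the enzymes with an active site outside the cell, Car4 (ENSMUSG00000000805, chromosome 11, 84957786 to 84966044, + strand) had the highest mean level in both intestinal groups. It was at 102, 120.2 and 143 CPM in SI epithelium, 124, 97.1 and 76.0 in SI tuft and 12.4, 19.0, 20.2 and 3.80 in thymic tuft libraries. The intestinal groups overlapped and every thymic library lay below both. The log2 difference of thymic from SI tuft cells was -2.84 (SE 0.43) and from SI epithelium -3.14 (SE 0.44), whereas that between the intestinal groups was -0.30 (SE 0.45). About 50 to 81 of the 753 to 1397 counts in thymic libraries 1 to 3 match the share of their SI epithelium partners. With thymic library 4 as the only thymic library the differences were -4.69 and -4.99.

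Car9 (ENSMUSG00000028463, chromosome 4, 43506966 to 43513729, + strand), a target of hypoxia-inducible factors that is also made by normal gut epithelium, fell further. It was at 110, 87.4 and 111 CPM in SI epithelium, 56.7, 54.9 and 58.1 in SI tuft and 2.81, 3.76, 1.80 and 0.266 in thymic tuft libraries. No library of one group reached the range of another. The log2 differences of thymic tuft cells were -4.71 (SE 0.57) from SI tuft and -5.57 (SE 0.59) from SI epithelium. About 63, 40 and 54 of the 171, 200 and 125 counts in thymic libraries 1, 2 and 3 match shared counts, and thymic library 4 held 14 counts. With that library alone the differences were -7.71 and -8.56, and with shared counts subtracted -5.14 and -6.01. Between SI tuft cells and SI epithelium the log2 difference of -0.86 (SE 0.55) was not called, although the libraries did not overlap. It was called in a fit of only those 2 groups and without thymic library 4, with the log2 difference at -0.85 and -0.86. An antisense gene, Gm12454, overlaps 214 bases of Car9 exons at means of 5.84, 6.87 and 0.722 CPM, and a kit that marks no strand cannot part the reads.

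Enterocyte markers moved with Car4 and Car9 in the thymic comparisons. All 12 were called lower in thymic than in SI tuft cells, with summed levels as given above. In thymic library 4, where Car4 and Car9 were lowest, 1 of the 12 was at 0. Thymic libraries 1 to 3 include counts shared with SI epithelium, so their marker levels do not compare directly with those of library 4. Between the intestinal groups the markers and the 2 genes did not move together. There 3 of 12 markers were called higher and 0 lower in SI tuft cells, with a median log2 difference of 0.78. Car4 (-0.30) and Car9 (-0.86) were not called. In SI tuft libraries the most abundant enterocyte markers, Apoa1 and Apoa4, were at 7181 ± 2618 and 6256 ± 1291 CPM (n = 3). The part of enterocyte RNA in the SI tuft level of Car4 and Car9 was not tested.

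Car12 (ENSMUSG00000032373, chromosome 9, 66713686 to 66766845, + strand), another transmembrane enzyme, was lowest in SI tuft and highest in thymic tuft libraries. It was at 31.9, 25.1 and 38.2 CPM in SI epithelium, 15.5, 5.44 and 3.64 in SI tuft and 55.2, 67.2, 65.9 and 92.5 in thymic tuft libraries, with no overlap between any pair of groups. The log2 differences were -1.95 (SE 0.45) for SI tuft against SI epithelium, 3.10 (SE 0.45) for thymic against SI tuft cells and 1.15 (SE 0.41) for thymic tuft cells against SI epithelium. The last of these calls was lost without any 1 of the 3 SI epithelium libraries, without thymic library 4, where Car12 was highest, and with the replicate number as a block (1.17). The first 2 were kept in every alternative setting. Medullary thymic epithelium markers were also called higher in thymic than in SI tuft cells, 9 of 9, at sums of 4267 to 5041 against 38.2 to 59.3 CPM, and their part in the Car12 level was not tested.

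Car14 (ENSMUSG00000038526, chromosome 3, 95897768 to 95904691, - strand), also a transmembrane enzyme, was near the detection floor. Its counts were 0, 11 and 5 in SI epithelium, 1, 12 and 0 in SI tuft and 72, 0, 17 and 94 in thymic tuft libraries, and no difference was called. Its exons overlap 445 bases of Aph1a on the other strand, which was at means of 4.48 to 8.26 CPM, so these counts are uncertain.

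Car8 (ENSMUSG00000041261, chromosome 4, 8143362 to 8239041, - strand), the member without catalytic activity, was low in SI tuft libraries. It was at 52.8, 62.2 and 48.2 CPM in SI epithelium, 3.50, 7.18 and 2.90 in SI tuft and 85.6, 38.0, 41.8 and 63.0 in thymic tuft libraries. SI tuft libraries lay below all others, while SI epithelium and thymic libraries overlapped. The log2 differences were -3.59 (SE 0.41) for SI tuft against SI epithelium, 3.66 (SE 0.40) for thymic against SI tuft cells and 0.07 (SE 0.34) for thymic tuft cells against SI epithelium. Markers of enteroendocrine cells, 10 of 10, were called lower in SI tuft than in SI epithelium, at sums of 549 to 1189.6 against 10253 to 14438 CPM. Goblet cell markers (7 of 7) and Paneth cell markers (9 of 9) were lower there too, with median log2 differences of -5.35 and -5.48 against -3.96 for the enteroendocrine list. In thymic libraries the enteroendocrine markers summed to 148 to 259 CPM, below the SI tuft sums, with Car8 at 38.0 to 85.6 CPM. Markers of neurons and glia summed to 147 to 191 CPM in SI epithelium, 17.7 to 22.1 in SI tuft and 121 to 174 in thymic tuft libraries. A different gene made up most of this sum in each tissue, Snap25 at a mean of 166 CPM in SI epithelium (14.8 in thymic libraries) and Syt1 at 131 CPM in thymic libraries (0.961 in SI epithelium). Of the 8 genes 1 was called higher and 1 lower in SI tuft than in SI epithelium. The part of any of these cell types in the Car8 level, or of the intestinal ones in the low Car12 level of SI tuft libraries, was not tested.

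**Figure D2:**
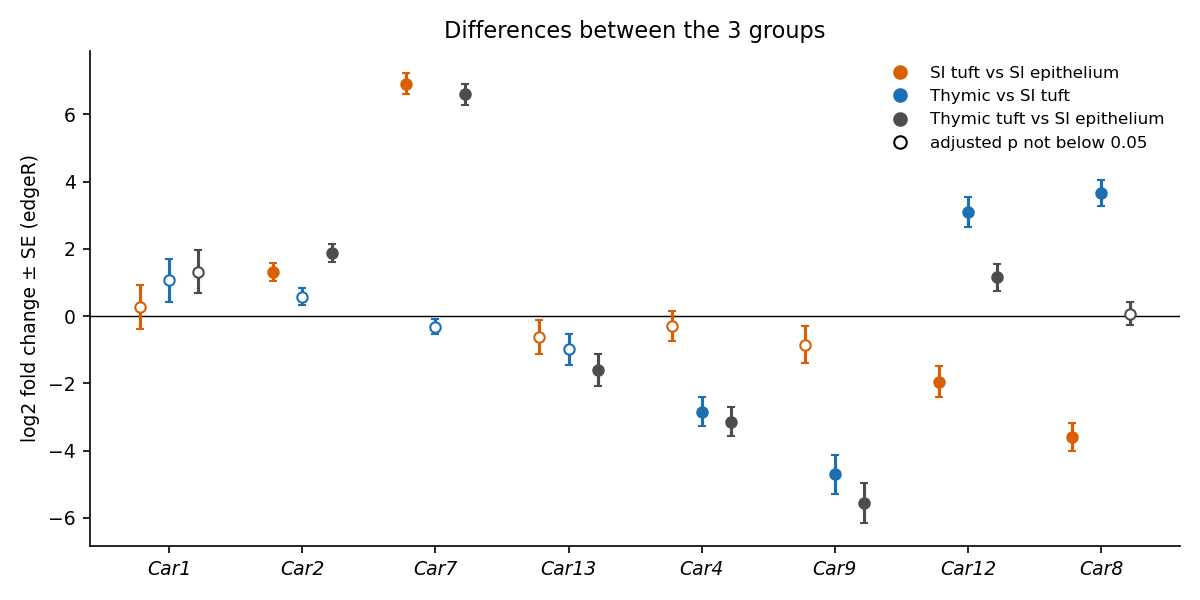
Log2 fold changes with standard errors (edgeR) of 8 members in the 3 comparisons, filled where the adjusted p was below 0.05. Car3 and Car14 are left out because 1 or both groups were near 0 counts. Car7 is far above 0 against SI epithelium in both tuft groups, and Car8 and Car12 are below 0 in SI tuft and above 0 in thymic against SI tuft cells.

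Among the 6 genes not on the list, Car6, the secreted enzyme of saliva, was called in the thymus. It was at 0.0565, 0.0637 and 0.0454 CPM in SI epithelium (3 counts in each library), 0.534, 0 and 0.343 in SI tuft and 3.94, 9.48, 3.36 and 11.8 in thymic tuft libraries. The thymic libraries lay above all intestinal ones. Its log2 difference from SI tuft was 4.60 (SE 1.11, edgeR adjusted p = 0.00443). Against SI epithelium, which was at the floor of 3 counts, no fold is given (adjusted p = 0.000679). Both calls held in every alternative setting that gave a value. Car11, a relative without activity, was called higher in thymic tuft cells than in SI epithelium (3.37, SE 1.26, edgeR adjusted p = 0.0407). Its thymic levels of 2.05, 0.0753, 8.40 and 3.36 CPM overlapped those of SI epithelium, and the call was lost in 8 of 19 alternative settings, one of them without thymic library 3 (adjusted p = 0.113). Car10, the third inactive form, had 58, 75, 3 and 0 counts in thymic libraries, at most 1 in the others, and did not pass the filter. The membrane-anchored Car15 and the mitochondrial Car5b stayed at or below 1.07 and 0.919 CPM and were not called, and Car5a, the other mitochondrial form, had no count in any library. Car15 shares 1253 exon bases with Gm20518 on the same strand, which was at means of 1.98, 0.603 and 0.469 CPM in SI epithelium, SI tuft and thymic libraries. Counts of Car15 are therefore uncertain.

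Compared per length, the leading isoenzyme was Car4 in SI epithelium, Car4 closely followed by Car7 in SI tuft and Car7 in thymic tuft libraries. Each gene's CPM was divided by the length of its joined exons, and its share of the sum over the 16 genes was taken in each library. In SI epithelium Car4 held 36.6%, 43.4% and 43.8% and Car9 33.7%, 26.9% and 28.9%, with Car7 at 0.201% to 0.277%. In SI tuft libraries Car4 held 34.5%, 38.6% and 30.7% and Car7 33.5%, 26.3% and 27.2%, and Car4 was above Car7 in 3 of 3 libraries. With the longest transcript as length both came to 35.9%, so the order of these neighbours is not settled. Enterocyte markers summed to 36091 to 40861 CPM in SI tuft and 18834 to 20513 in SI epithelium libraries. The part of enterocyte RNA in the SI tuft shares was not tested. In thymic tuft libraries Car7 held 31.9%, 35.6%, 37.3% and 32.9%, Car2 15.1%, 13.8%, 17.5% and 15.8% and Car8 24.0%, 9.55%, 11.4% and 14.9%. Car7 led in 4 of 4, and Car2 was above Car8 in 3 of 4, so that pair was not separated. Car12 held 7.86% to 11.1% there. Its joined exons span 7597 bases and its longest transcript 3716, so its place below Car2 and Car8 depends on the length used.

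**Figure D3:**
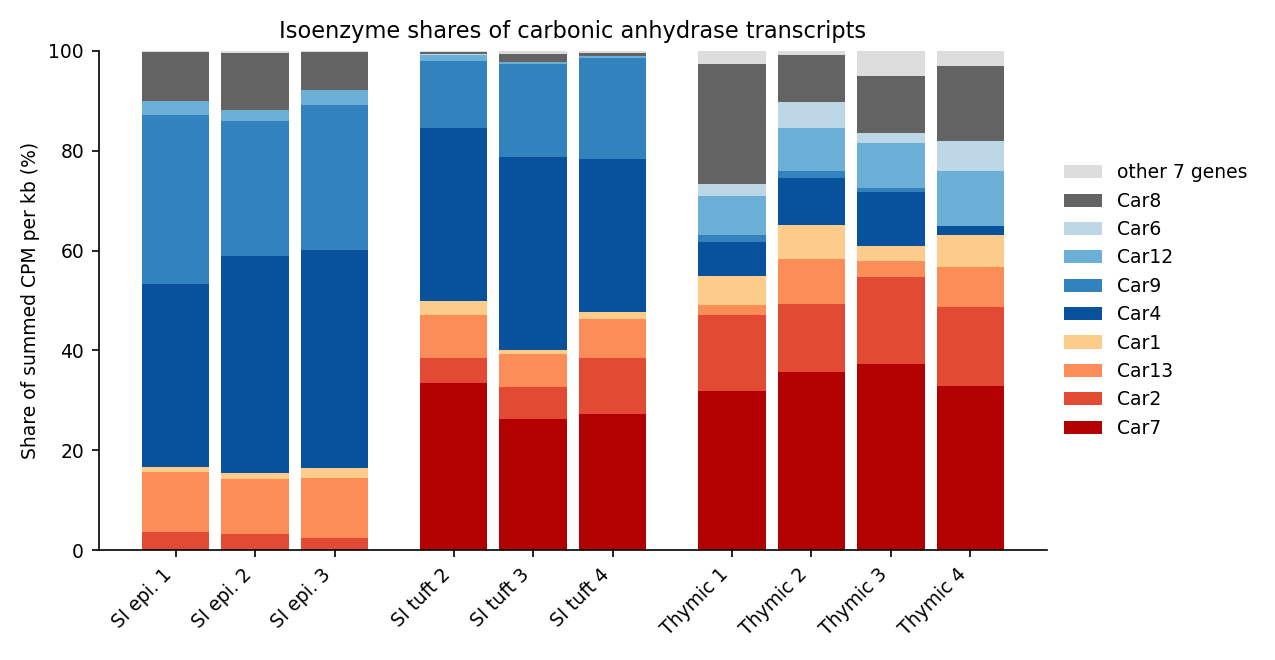
Share of each carbonic anhydrase gene in the summed CPM per kb of the family (%), 1 bar per library. Reds are cytosolic, blues membrane-bound or secreted forms and dark grey Car8. The cytosolic part grows from 15.5% to 16.8% in SI epithelium to 55.6% to 65.1% in thymic tuft libraries.

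By place in the cell, cytosolic forms made up 16.2 ± 0.650% of the family sum in SI epithelium (SD, n = 3), 45.9 ± 5.16% in SI tuft (n = 3) and 61.4 ± 4.25% in thymic tuft libraries (n = 4). Membrane-bound and secreted forms made up 74.0 ± 1.66%, 52.9 ± 4.51% and 21.6 ± 2.91%. The forms without activity, nearly all Car8, made up 9.67 ± 2.03%, 1.15 ± 0.671% and 16.9 ± 6.40%. The ranges of the 3 groups did not overlap for the first and the second of these classes. As a level, the cytosolic sum was 24.3 ± 2.76, 67.6 ± 21.1 and 61.8 ± 8.65 CPM per kb, and the membrane-bound and secreted sum was 111 ± 13.2, 76.3 ± 12.8 and 21.6 ± 3.47. The whole family summed to 149.6 ± 14.3, 145 ± 32.4 and 100.2 ± 7.96 CPM per kb. These are descriptions of the chosen family, with no test, and the part of enterocyte RNA in the SI tuft values was not tested either.

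Car13, Car1, Car3 and Car2 lie side by side in this order on chromosome 3, between 14641727 and 14900770, and did not share a pattern. By group means Car13 was highest in SI epithelium (40.2 ± 5.33 CPM), Car2 in thymic tuft cells (37.6 ± 4.13 CPM), and Car1 and Car3 stayed at or below 6.92 CPM. The neighbouring genes E2f5 and 1810022K09Rik, on the side of Car13, were at means of 4.30 to 9.86 CPM in all 3 groups.

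Carbonic anhydrases work with transporters that move their products. A set of 10 lists with 143 genes was drawn up for these partners with earlier results known. By symbol 142 of them were found, and 129 genes outside the family's own 16 passed the filter. Of these, 30 were called higher and 12 lower in SI tuft than in SI epithelium. In thymic against SI tuft cells 39 were higher and 47 lower (42 and 40 with DESeq2 size factors, 48 and 40 with the DESeq2 test), and in thymic tuft cells against SI epithelium 50 were higher and 35 lower. These are 42, 86 and 85 of 129, where 22.3%, 51.6% and 50.9% of all genes tested were called. The counts of each list below are to be read beside these shares.

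Among the genes of the Slc4 list, the calls against SI epithelium were mostly upward in both tuft groups. Most are bicarbonate transporters, but the list also holds Slc4a11 and Slc4a1ap, the latter the gene of an adaptor protein. Of 11 tested, 4 were higher and 0 lower in SI tuft than in SI epithelium (median log2 difference 0.22, all genes -0.10), and 6 were higher and 2 lower in thymic tuft cells than in SI epithelium (median 3.03, all genes 0.15). Slc4a8, a sodium-driven chloride-bicarbonate exchanger, was at 11.5, 14.6 and 10.2 CPM in SI epithelium, 219, 219.8 and 185 in SI tuft and 91.4, 97.8, 86.5 and 120.4 in thymic tuft libraries, all tuft libraries being above all epithelial ones. It rose by 4.10 on the log2 scale in SI tuft cells (SE 0.21, edgeR adjusted p = 5.14e-08). Slc4a2, the anion exchanger of many epithelia, rose from 37.0 ± 3.38 to 139.9 ± 10.7 CPM in SI tuft cells (log2 difference 1.92, SE 0.29, adjusted p = 0.000438). In thymic tuft cells Slc4a8 and Slc4a2 lay between the other groups, at 99.0 ± 15.0 and 66.7 ± 26.4 CPM. Thymic tuft cells differed from SI tuft cells in both directions, with 4 of 11 higher and 5 lower (median -0.07, all genes 0.12). Slc4a5 was at 50.7 ± 15.7 CPM in SI tuft (n = 3) and 0.747 ± 0.149 in thymic tuft cells (n = 4), a log2 difference of -6.08 (SE 0.29, edgeR adjusted p = 1.92e-08), and Slc4a4, the sodium bicarbonate cotransporter, was lower by a log2 difference of -1.65 (SE 0.25, adjusted p = 0.000151). Slc4a11 was at 2.07 ± 0.923 CPM in SI tuft cells and 49.4 ± 29.3 in thymic tuft cells (4.58, SE 0.58, edgeR adjusted p = 4.18e-05).

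The Slc26 anion exchangers were called in both directions between the tufts of the 2 tissues, at about the share of all genes (51.6%). Of 9 tested, 1 was called higher and 4 lower in thymic than in SI tuft cells, although the median was positive (0.74, all genes 0.12), and in SI tuft against SI epithelium 0 were higher and 1 lower (median 0.24, all genes -0.10). Slc26a3 and Slc26a6, the chloride-bicarbonate exchangers of the brush border, were at 116 ± 10.7 and 106 ± 29.9 CPM in SI tuft and 4.45 ± 1.88 and 1.57 ± 1.10 in thymic tuft cells. Their log2 differences were -4.70 (SE 0.33) and -6.08 (SE 0.64), with edgeR adjusted p = 3.10e-07 and 8.15e-06. Over the alternative settings these ranged from -5.96 to -4.43 and from -9.61 to -5.69. Thymic counts of Slc26a6 were 122, 145, 97 and 7 in libraries 1 to 4, those of 1 to 3 including shared counts, so its fold is not fixed. All 12 enterocyte markers were lower in the same comparison, at means of 38035 against 388 CPM in sum, and their part in these differences and in those of Slc9a3 and Cps1 below was not tested. Slc26a9, which carries chloride and bicarbonate in stomach and airway, was at 0.0729, 0.0816 and 0.185 CPM in SI tuft libraries and 35.8, 39.7, 48.4 and 28.5 in thymic ones (adjusted p = 7.55e-08), against 1.15 ± 0.244 in SI epithelium.

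The genes of the Slc9 list and acid sensors were also called in both directions. Beside sodium-proton exchangers the Slc9 list holds Slc9a3r1 and Slc9a3r2, genes of scaffold proteins. Of 11 Slc9 genes tested, 5 were called higher and 4 lower in thymic than in SI tuft cells (median 0.28), and of 12 genes for acid and carbon dioxide sensing 5 were higher and 3 lower (median 0.98). Slc9a3, the brush border exchanger, went from 68.9 ± 23.6 CPM in SI tuft to 1.61 ± 1.73 in thymic tuft cells (-5.41, SE 0.68, edgeR adjusted p = 3.59e-05). Its difference ranged from -7.72 to -5.06 over the alternative settings. Slc9a7, an exchanger of the Golgi, was at 0 to 0.109 CPM in SI tuft and at 49.3, 41.0, 52.3 and 48.5 in thymic tuft libraries (adjusted p = 1.19e-07). Otop3, a proton channel, was at 28.3 ± 6.62 CPM in SI epithelium, 37.5 ± 8.98 in SI tuft cells and 0.346 ± 0.299 in thymic tuft cells (thymic against SI tuft -6.72, SE 0.76, edgeR adjusted p = 1.51e-05). Its thymic counts were 15, 23, 49 and 0 in libraries 1 to 4, in part of the size of the shared counts estimated above. Over the alternative settings this difference ranged from -13.81 to -6.32, so the size of the fold is not fixed.

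**Figure D4:**
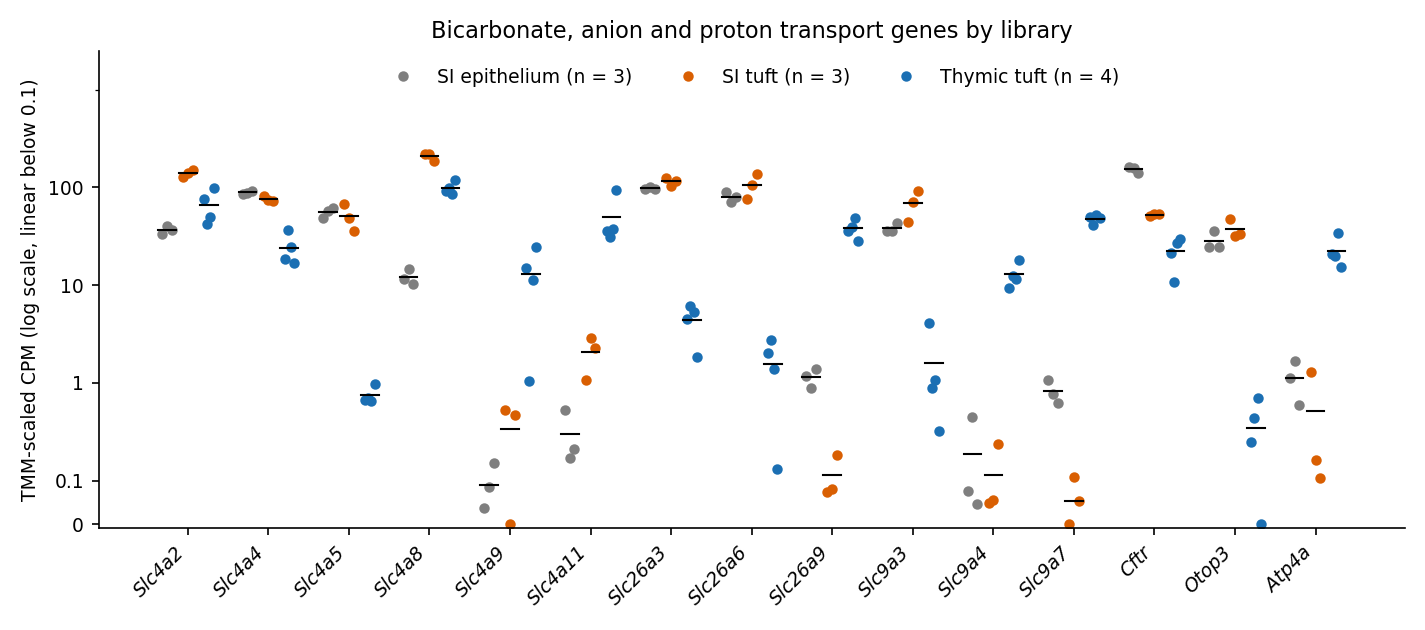
TMM-scaled CPM (log scale, linear below 0.1) of 15 transport genes in each library, coloured by group as in the plot of member levels, with bars for group means. Slc4a8 and Slc4a2 are higher in both tuft groups than in SI epithelium, Slc26a3, Slc26a6, Slc9a3 and Otop3 are low in the thymus, and Slc26a9 and Slc9a7 are high there.

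Proton pump genes were called higher more often than lower, 9 and 0 of 27 in SI tuft against SI epithelium (median 0.61, all genes -0.10) and 12 and 6 in thymic against SI tuft cells (median 0.56, all genes 0.12). Atp4a, the catalytic subunit of the gastric proton pump, was at 22.6 ± 8.19 CPM in thymic tuft cells and 0.519 ± 0.666 in SI tuft cells (edgeR adjusted p = 0.000271). The other subunit, Atp4b, was near the floor, at 1.40 ± 2.27 CPM in thymic tuft cells (median 0.396) and 0 in SI tuft cells. Of 15 chloride channel and loader genes, 2 were higher and 3 lower in SI tuft than in SI epithelium (median 0.02) and 2 higher and 6 lower in thymic than in SI tuft cells (median -0.49). The latter count is near the share of all genes called, 51.6%. Cftr, the chloride and bicarbonate channel, fell from 154 ± 10.1 CPM in SI epithelium to 52.6 ± 1.83 in SI tuft cells (-1.55, SE 0.29, edgeR adjusted p = 0.00237) and was at 22.2 ± 8.23 in thymic tuft cells.

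Lists on lactate and hypoxia were included because Car9 is a hypoxia gene, and their relation to the Car9 level was not tested. Of 25 hypoxia response genes, 9 were called higher and 2 lower in SI tuft than in SI epithelium (median 0.27, all genes -0.10), where Car9 was not called. In thymic against SI tuft cells 3 were higher and 12 lower (median -0.65, all genes 0.12). In thymic tuft cells against SI epithelium, where the Car9 difference was -5.57, 8 were higher and 7 lower (median -0.14, all genes 0.15). Slc2a1, the glucose transporter, rose from 165 ± 11.2 to 939 ± 161 CPM in SI tuft cells (2.50, SE 0.18, edgeR adjusted p = 1.28e-06). Ldha, lactate dehydrogenase A, was at 1334 ± 18.1 CPM in SI tuft cells and 101 ± 17.5 in thymic tuft cells (-3.72, SE 0.17, adjusted p = 1.33e-08). Adm, another hypoxia gene, went the other way, from 5.93 ± 0.685 CPM in SI tuft to 45.9 ± 8.72 in thymic tuft cells (2.95, SE 0.26, edgeR adjusted p = 2.09e-06). Of 8 monocarboxylate transport genes 2 were higher and 2 lower in SI tuft than in SI epithelium (median 0.08) and 3 higher and 4 lower in thymic than in SI tuft cells (median -1.19). Bsg, the chaperone of these transporters, was at 915 ± 81.4, 2348 ± 252 and 311 ± 68.8 CPM in SI epithelium, SI tuft cells and thymic tuft cells, in this order.

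Enzymes that use bicarbonate were called at about the shares of all genes, 22.3% and 51.6%. Of 9 tested, 1 was higher and 1 lower in SI tuft against SI epithelium (median -0.45). In thymic against SI tuft cells 2 were higher and 3 lower (median -0.22). Pyruvate carboxylase is not among the 9, because its listed symbol, Pc, matched none of the annotation. Acacb, an acetyl-CoA carboxylase, rose from 4.78 ± 1.27 to 137 ± 35.0 CPM in SI tuft cells (4.84, SE 0.61, edgeR adjusted p = 0.000122). Cps1, the mitochondrial carbamoyl phosphate synthase, was at 1539 ± 104 CPM in SI epithelium, 462 ± 5.38 in SI tuft cells and 10.2 ± 7.53 in thymic tuft cells. Its thymic counts were 1105, 624, 771 and 0 in libraries 1 to 4, against 107655, 67175 and 82975 in SI epithelium libraries 3, 2 and 1. Those of thymic libraries 1 to 3 are of the size of the shared counts estimated above, so a thymic level of Cps1 is not established. Of 6 tested genes in the list of other family members, which adds 2 receptor phosphatases with a carbonic anhydrase-like domain, Ptprz1 was at 11.5 ± 4.53 CPM in thymic tuft cells and at 0.0172 ± 0.0149 in SI tuft cells (edgeR adjusted p = 4.57e-06).

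The genes whose log2 CPM followed each member most closely over the 10 libraries were found among 10748 protein-coding genes. For Car7 they were Cd47, Bmx and Pik3cg, with Pearson r of 0.998, 0.997 and 0.997. Bmx was at means of 8.87, 570.1 and 472 CPM in SI epithelium, SI tuft and thymic tuft libraries. For Car9 Slc3a1 and Nr5a2 were among them (0.996 and 0.994), and for Car4 they were Prelid2, Scml4 and Nr5a2 (0.993, 0.990 and 0.989), so Nr5a2 was close to both. For Car8 they were Kif1a, Arhgef40 and Adcy2 (0.981, 0.975 and 0.973), for Car12 Parvb, Cd177 and Lbp (0.985, 0.983 and 0.979), for Car2 Trove2, Bicd1 and Slfn5 (0.983, 0.977 and 0.973) and for Car13 Pex13, Zfyve21 and Copb1 (0.973, 0.970 and 0.965). The 10 points share 3 groups and their libraries, so these values describe mainly the order of the group levels and carry no test.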

How the data were processed

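RNA was measured in 10 libraries of sorted cells, 3 of SI epithelium, 3 of SI tuft cells and 4 of thymic tuft cells, grouped by their sample labels. The authors deposited raw counts per gene for each library. Per the submitters' processing notes STAR, DESeq2 and GRCm38 were used, without versions. Per the labels' protocols, poly(A) RNA was amplified with NuGen Ovation V2 and made into libraries with Nextera XT, which marks no strand. Per the series' design text, 1 SI tuft and 1 SI epithelium replicate were discarded for quality.

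Symbols, coordinates and exon lengths came from GENCODE M21, which held 42548 of 43432 identifiers, and the rest carried at most 0.147% of a library's counts. The low-count filter was filterByExpr of edgeR, with a minimum count of 10 and a total of 15. Counts were scaled by TMM and tested with the edgeR quasi-likelihood test over all 10 libraries, with Benjamini-Hochberg adjustment. The versions were DESeq2 1.42.0, limma 3.58.1 and edgeR 4.0.16 under R 4.3.3. CPM are counts-per-million of the TMM-scaled library. The pipeline was tested on simulated data. Each library came from 1 mouse, and whether any mouse gave more than 1 library is not known here.

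Counts shared between libraries were estimated as the median ratio, with at least 500 partner counts, over genes nearly restricted to thymic or SI epithelium libraries. Alternatives were other scalings, filters and tests, a fit of 2 groups, a replicate block, removal of mitochondrial counts, subtraction of shared counts, thymic library 4 alone and removal of each library.

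The members, the 10 partner lists and the 16 marker lists were chosen with earlier results of these data known. Named were all family genes, up to 2 members each way of each partner list and comparison (called, largest change, at least 10 CPM, no overlap), the 2 most abundant markers of a list, and for each member the 3 protein-coding genes with the highest correlation. Not every gene found by this rule is described, and some are not reported here.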

Additional observations from a re-analysis of the deposited data

Results flagged for a closer look

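In the group of 4 thymic libraries, 1 library stood apart from the rest by Dixon's criterion at the 95% level in 4 of 70 genes checked. Chance alone flags about 1 in 20 groups. Car15, the membrane-anchored enzyme, was at 1.07 CPM in thymic library 2 against 0 to 0.115 in the others. Slc4a11 was at 93.2 CPM in thymic library 4 against 31.0 to 37.8. Slc4a5 was at 0.968 CPM in thymic library 4 against 0.649 to 0.696, and Atp6ap2, a proton pump accessory gene, at 38.6 CPM in thymic library 3 against 31.1 to 32.2. None of these is among the 10 listed members.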

How the results depend on the processing

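No alternative reversed the direction of a called carbonic anhydrase or named partner gene. Of the alternative values, 758 for family genes and 1775 for partner genes kept their side of the threshold, 18 and 42 lost a call and 15 and 0 gained one. The partner genes were named only in comparisons where they were called, with large changes and no overlap. None of them could therefore gain a call, and this choice also favoured calls and directions that hold. Some differences that were not called changed sign, such as Car1 in SI tuft against SI epithelium (0.26, and -0.18 with the replicate block). Genes called in SI tuft against SI epithelium rose from 4300 to 6988 when only those 2 groups were fitted, and partner genes called from 42 to 65. In thymic against SI tuft cells genes called fell from 9945 to 6598 with a filter of 10 CPM in 3 libraries, which tests fewer genes. Leaving out 1 library at a time gave 4 to 5, 4 to 6 and 4 to 7 members called in the 3 comparisons. The lowest count against SI epithelium in the thymus, 4, came without SI epithelium library 3, where Car3, Car12 and Car13 were not called. Genes called ranged over 2888 to 5270, 8343 to 10028 and 7630 to 10041, and partner genes over 28 to 48, 71 to 87 and 68 to 87. With the longest transcript as length, the share of Car4 in SI epithelium moved from 41.3% to 49.0%, and that of Car7 from 29.0% to 35.9% in SI tuft and from 34.4% to 42.6% in thymic tuft cells. Leaving out 1 library gave shares of 40.0% to 43.6%, 26.8% to 30.3% and 33.5% to 35.3%, and 32.6% to 36.5% for Car4 in SI tuft.

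Labels give the groups the same replicate numbers, but same-numbered libraries did not deviate together (correlations of -0.04 to 0.10). The highest value was that of thymic and SI epithelium libraries 2, which share counts. With so few libraries, values near 0 do not show whether same-numbered libraries came from the same mouse. With the replicate block 3202, 8939 and 8981 genes and 4, 5 and 6 members were called. DESeq2 size factors moved the median of all genes from 0.12 to 0.36 in thymic against SI tuft cells and from 0.15 to 0.38 in thymic tuft cells against SI epithelium. Where thymic library 4 stood alone, it was assumed to vary like the other groups. Depth limits Car3, Car14, Car10, Car15 and Car5b, which were at or near 0 counts in several libraries.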
